A study of Homo sapiens with 12 samples.

Results

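The genes described here are 49 mesenchymal and extracellular matrix genes, listed by name for their roles, at a time when earlier results of these data were known. They comprise mesenchymal cell state markers and transcription factors, YAP, TAZ and a pair of their targets, annexins, S100 proteins and a galectin, collagens, laminins and matrix glycoproteins, integrins, a matrix protease with protease inhibitors, and members of TGF-beta signalling. All 49 had a probe on the array. Of these, 37 were detected on at least 1 of 12 arrays and were measured, among 12138 genes measured in all.

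Gene expression was profiled in SK-N-Be(2)C cells, a human neuroblastoma line derived from bone marrow, in 4 groups of 3 arrays. Parental cells without drug are called WT. WT-v cells were the parental line with intermittent exposure to vorinostat (SAHA), a histone deacetylase inhibitor, and no doxorubicin. DoxR cells were selected for survival in doxorubicin, an anthracycline, by raising its concentration in steps, and DoxR-v cells were selected in parallel with vorinostat given, at the IC25 of the line, whenever doxorubicin was raised by 1 log. Each group other than WT is thus 1 line with its own history of passage, so exposure to a drug and separate selection cannot be told apart in any comparison. Nothing in the labels says that the triplicates were separate cultures, and p-values therefore measure the spread between these specimens only.

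Neuroblastoma cells occur in an adrenergic state, which resembles committed sympathetic neuroblasts, and in a mesenchymal state, which resembles neural crest or Schwann precursor cells. The mesenchymal state is known for vimentin, CD44, fibronectin and PRRX1, for YAP and TAZ activity and for more resistance to chemotherapy. Extracellular matrix proteins are bound by integrins at the cell surface, and TGF-beta signalling raises many matrix genes in mesenchymal cells.

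Vimentin rose in all 3 drug-exposed groups, and CD44 fell below detection in WT-v cells while it rose in both resistant lines. Type IV collagen genes and thrombospondin 1 were detected in DoxR cells alone, and laminin alpha 4 in WT cells alone. SNAI2, S100A10, SPARC and SERPINE2 were highest in DoxR cells and were lower in DoxR-v cells than in DoxR by log2 2.85 or more. Fibronectin, PRRX1, YAP1 and WWTR1 (TAZ) were detected on no array.

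Each array detected 31.3% to 36.5% of the probes, and arrays of 1 group correlated at 0.981 to 0.993. The median SD of a measured member in log2 units was 0.20 for WT, 0.18 for WT-v, 0.09 for DoxR and 0.18 for DoxR-v. As each array holds the RNA of a whole culture, fewer cells that express a gene and less RNA per cell cannot be told apart. The 8 measured of 10 adrenergic identity genes, which mark the adrenergic state of neuroblastoma, were detected on every array. All 4 groups thus had these markers, though the levels of some differed between groups, as given below.

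Detection split the members before any comparison. A probe counted as detected on an array at a detection p-value under 0.01, the chance that a negative control bead would be as bright. There were 18 members detected on all 12 arrays, 19 on some and 12 on none. The members detected on none were SNAI1, PRRX1, YAP1, WWTR1, ANXA1, COL5A2, COL18A1, FN1, ITGA3, ITGA5, TGFB1 and TGFBI, whose signals lay between log2 4.30 and 5.42 and whose level therefore has only an upper bound. DoxR cells had 28 members detected on all 3 arrays, against 23 in WT, 26 in WT-v and 22 in DoxR-v cells. CCN1, COL1A1, COL6A3 and TIMP3 were each detected on 1 array only.

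Fibronectin and PRRX1 define the mesenchymal state, and YAP1 and WWTR1 encode YAP and TAZ. FN1 read log2 4.56, 4.68 and 4.62 on WT, 4.49, 4.57 and 4.52 on WT-v, 4.46, 5.10 and 4.62 on DoxR and 4.71, 4.63 and 4.62 on DoxR-v arrays. PRRX1 read 4.62, 5.18 and 4.89 on WT, 4.55, 4.72 and 4.88 on WT-v, 4.83, 4.61 and 4.85 on DoxR and 5.15, 4.91 and 4.57 on DoxR-v arrays. Both were below the lowest detected signal of every array. YAP1 read 4.46, 4.41 and 4.36 on WT, 4.46, 4.61 and 5.07 on WT-v, 4.81, 4.46 and 4.52 on DoxR and 4.62, 4.48 and 4.59 on DoxR-v arrays. WWTR1 read 4.45, 4.48 and 4.36 on WT, 4.45, 4.68 and 4.44 on WT-v, 4.42, 4.42 and 4.50 on DoxR and 4.52, 4.30 and 4.40 on DoxR-v arrays. These signals were not detected on any array, so no order of groups can be read from them.

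**Figure D1:**
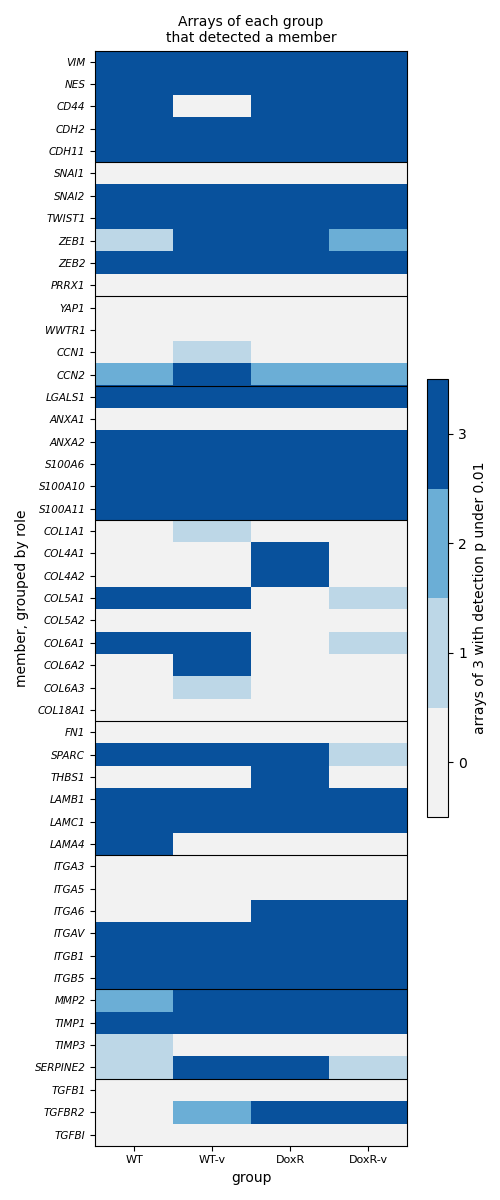
Number of arrays of each group (columns, 3 arrays each) on which each of the 49 members (rows, grouped by role) had a detection p-value under 0.01. COL4A1, COL4A2 and THBS1 were detected in DoxR cells only and LAMA4 in WT cells only, and 12 rows are empty.

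The thresholds for a call were 0.1 for the adjusted p and 1.5 for the fold change, over all genes measured. In WT-v against WT, 10 of the 37 measured members were higher and 10 lower, where 14.5% of all genes were higher and 12.5% lower. In DoxR against WT, 16 were higher and 8 lower, against 17.4% and 16.3% of all genes. In DoxR-v against WT, 8 were higher and 11 lower, against 13.3% and 12.6%. Members that passed detection through 1 group alone had to differ from the other groups, so these shares describe the measured members and not the whole list of 49.

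The median log2 difference of the measured members against WT was 0.17 for WT-v, 0.31 for DoxR and 0.01 for DoxR-v, and that of all genes was 0.03, 0.01 and 0.02. The median scaling of arrays in place of quantile normalization put the median of all genes at 0.24, 0.18 and 0.23. It gave 15 members higher and 7 lower in WT-v, 18 and 7 in DoxR, and 10 and 8 in DoxR-v cells, against 27.3% and 6.74%, 26.7% and 10.1%, and 26.4% and 6.41% of all genes. No member called under either scaling changed its direction. The 3 comparisons share the WT arrays and are not independent of each other.

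Some calls depended on the values used or on 1 array. With the deposited normalized values the fold fell under 1.5 for ZEB2, S100A10, COL1A1, COL6A2, TIMP3, SERPINE2 and TGFBR2 in WT-v cells. It did so for NES, COL5A1, COL6A1, THBS1, ITGA6, MMP2 and TIMP3 in DoxR cells, for NES, SNAI2, ZEB2, COL5A1, COL6A1, MMP2 and TIMP3 in DoxR-v cells, and for CDH11, COL4A2, COL5A1 and THBS1 between DoxR-v and DoxR. Between DoxR-v and WT-v cells it did so for CCN2, COL5A1, COL6A2, MMP2 and SERPINE2. Calls that rest on 1 array are given with each member. Further members were called once 1 array was left out. In WT-v cells these were CCN1 (log2 0.69 without the second WT-v array) and ITGA6 (without the second WT array, in groups that did not detect it), and in DoxR-v cells ITGB5 (0.62 without the third DoxR-v array). Between DoxR-v and DoxR they were NES (-0.65 without the second DoxR and -0.67 without the second DoxR-v array) and ZEB2 (-0.72 without the third DoxR-v array). Between DoxR-v and WT-v cells they were COL1A1 (-0.61 without the second WT-v array), NES (0.62 without the first DoxR-v array) and COL6A3 (-0.75 without the first WT-v, -0.67 without the first and -0.59 without the third DoxR-v array). The values of CCN1, COL1A1 and COL6A3, each detected on 1 array, are differences between signals mostly at background.

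In DoxR-v against DoxR cells 7 members were higher and 11 lower, where 14.7% of all genes were higher and 14.4% lower, and the members' median was -0.26 against 0.00. In DoxR-v against WT-v cells 10 were higher and 9 lower, where 12.6% and 12.8% of all genes were, with a median of -0.23 against -0.03. The difference between the vorinostat comparisons, (DoxR-v minus DoxR) minus (WT-v minus WT), was higher than 0 for 12 members and lower for 15, against 20.4% and 22.1% of all genes. With median scaling it was higher for 11 and lower for 18 members, against 14.1% and 28.3% of all genes, and the median of all genes moved to -0.22. All 49 members are accounted for in these counts, the 12 not detected having no comparison. Some calls in the difference rested on 1 array. That of ANXA2 (0.62) was lost without the third DoxR or the third WT array (0.47 and 0.56). That of COL1A1 (-0.74) was lost without the first WT-v or WT array (-0.50 and -0.68), the second or the third DoxR array (-0.64 and -0.72) or the second DoxR-v array (-0.65). That of LAMB1 (-0.66) was lost without the first WT-v array (-0.47), the first or second WT array (-0.60 and -0.63), the first DoxR array (-0.65) or the third DoxR-v array (-0.63). ZEB1 (-1.20 without the third WT array, and also without the third WT-v array), COL6A3 (-0.70 without the first WT-v, -0.61 without the first DoxR-v and -0.59 without the third WT array) and LAMC1 (-0.60 to -0.62 without the first WT, the third WT, the third WT-v or the third DoxR-v array) were called once 1 array was left out. NES, CDH11, COL1A1, COL6A2, THBS1 and TIMP3 were not called in it with the deposited normalized values.

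**Figure D2:**
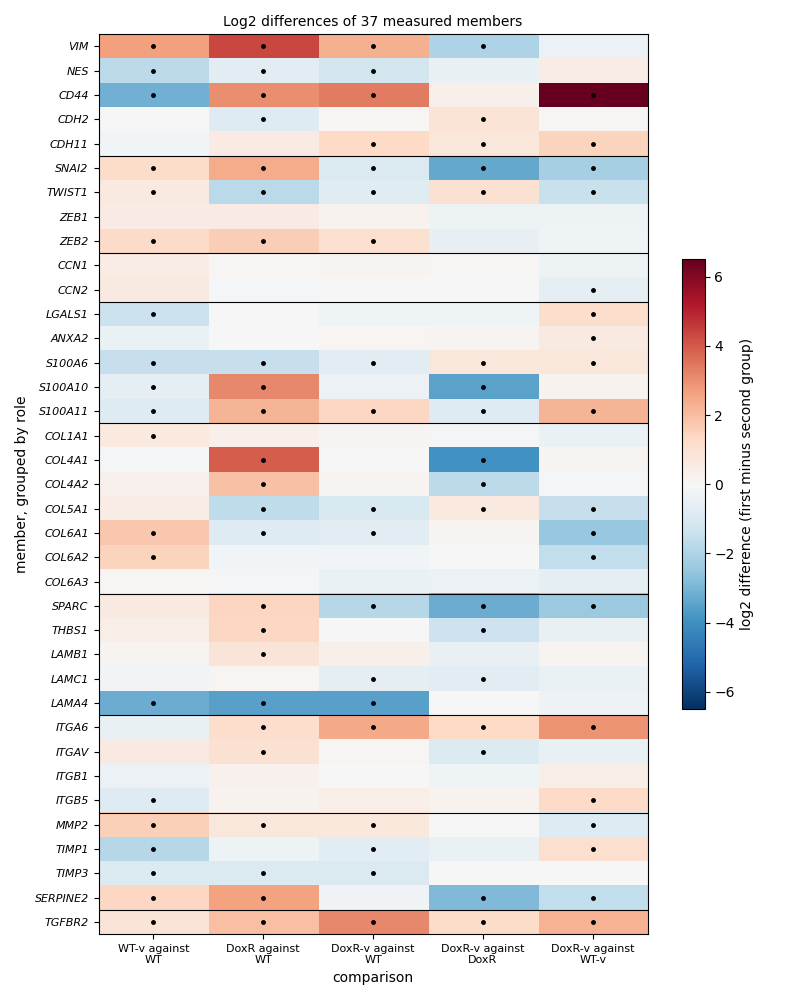
Log2 difference (colour, first group minus second) of the 37 measured members (rows, grouped by role, lines between roles) in 5 comparisons (columns), with a dot where a member was called. VIM is higher in all 3 comparisons with WT and lower in DoxR-v cells than in DoxR, and LAMA4 is lower in all 3 comparisons with WT.

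Among the cell state markers, VIM and CD44 had the largest differences. VIM encodes vimentin, the intermediate filament of mesenchymal cells. Its log2 signal was 9.34, 9.37 and 9.50 on WT arrays, 12.12, 12.00 and 12.16 on WT-v arrays, 13.82, 13.74 and 13.68 on DoxR arrays and 12.17, 11.51 and 11.47 on DoxR-v arrays. Every drug-exposed array was above every WT array, and the DoxR arrays were above all others, while WT-v and DoxR-v arrays overlapped. The rise was log2 2.69 ± 0.17 (SE, adjusted p = 2.6e-07) for WT-v, 4.34 ± 0.17 (1.2e-09) for DoxR and 2.31 ± 0.17 (8.6e-07) for DoxR-v. VIM was lower in DoxR-v cells than in DoxR by a log2 difference of -2.03 (adjusted p = 1.5e-06). It was not called between DoxR-v and WT-v cells (log2 -0.38), but was without the first DoxR-v array (-0.60, adjusted p = 0.00918). A second VIM probe gave log2 3.15, 5.20 and 2.93 against WT and was called in the same directions.

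CD44 encodes the cell surface receptor for hyaluronan. The log2 signal was 7.58, 7.60 and 7.45 on WT arrays, 4.40, 4.48 and 4.43 on WT-v arrays, 10.65, 10.50 and 10.58 on DoxR arrays and 11.11, 10.84 and 10.80 on DoxR-v arrays. The WT-v arrays did not detect it, both resistant lines lay above WT, and no groups overlapped. Where the dimmer group was detected on none of its arrays, the printed fold is a lower bound, taken against the dimmest signal that each of those arrays could detect, and it holds within these normalized values only. CD44 fell at least 4.39-fold in WT-v cells (adjusted p = 5.4e-09) and rose in the resistant lines, by log2 3.04 ± 0.13 in DoxR (2.4e-09) and by 3.38 ± 0.13 in DoxR-v (2.3e-09). DoxR-v cells exceeded WT-v cells at least 45.6-fold (adjusted p = 5.0e-12), the largest difference of a member in any pairwise comparison. The DoxR and DoxR-v lines were not called apart (log2 0.34). A second CD44 probe was called in the same directions against WT.

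NES, the gene of the neural progenitor filament nestin, fell in all 3 groups, from a mean of log2 7.57 for WT to 5.88 for WT-v, 6.86 for DoxR and 6.36 for DoxR-v. The call in DoxR cells was lost without the second DoxR array (log2 -0.57, adjusted p = 0.0498) and with median scaling. CDH2, or N-cadherin, was lower in DoxR cells only (log2 -0.82, adjusted p = 2.0e-04) and higher again in DoxR-v cells than in DoxR (0.90, 1.1e-04). CDH11, a cadherin of mesenchymal tissue, rose in DoxR-v cells (log2 1.27, adjusted p = 3.7e-05) and exceeded its DoxR level too (0.75, 0.00144). In DoxR cells it was not called with all arrays, but was without the third WT array (log2 0.60, adjusted p = 0.009) and with median scaling.

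**Figure D3:**
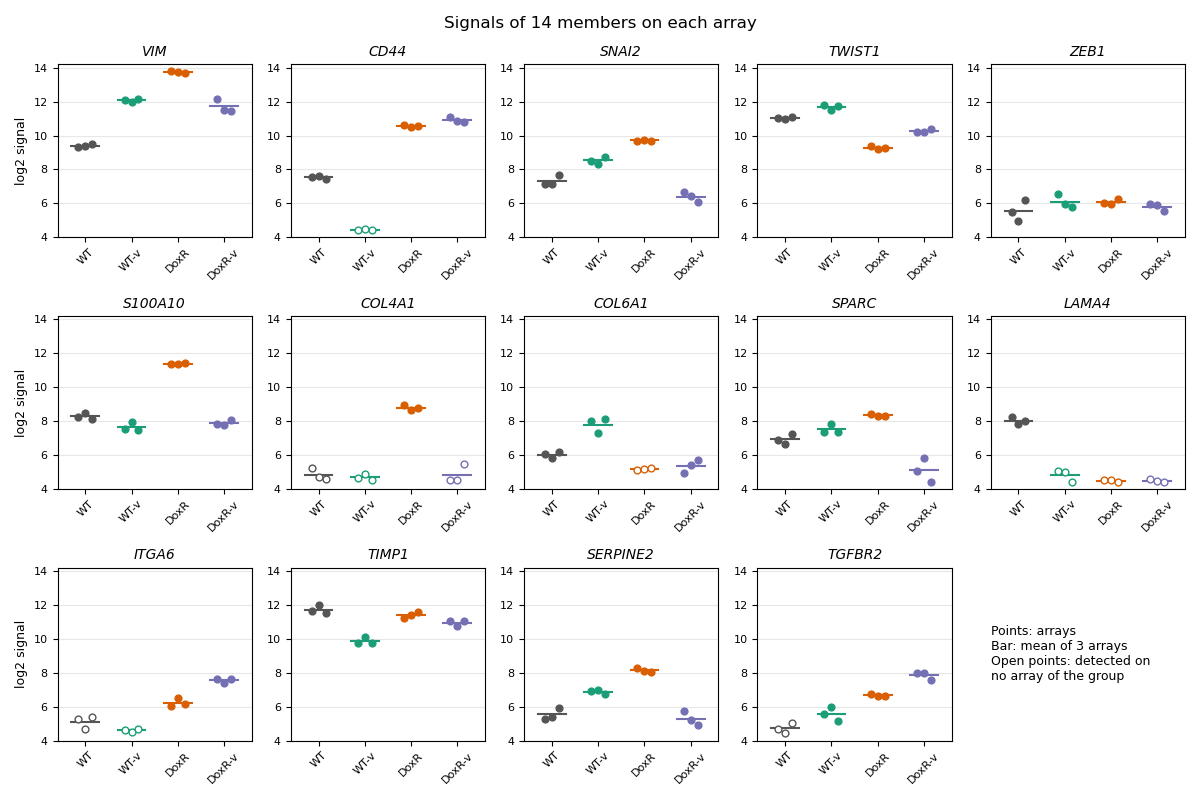
Log2 signal (y axis) of 14 members on each of the 3 arrays (points) of each group (x axis), with the mean as a bar and open points where no array of the group detected the member. SNAI2, S100A10, COL4A1, SPARC and SERPINE2 are highest in DoxR cells, and LAMA4 is filled in WT cells only.

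The transcription factors of epithelial-mesenchymal transition did not move as 1 group. SNAI2, or Slug, a repressor that acts in neural crest cells, had log2 signals of 7.14, 7.12 and 7.69 on WT arrays, 8.52, 8.31 and 8.75 on WT-v arrays, 9.69, 9.75 and 9.69 on DoxR arrays and 6.64, 6.41 and 6.06 on DoxR-v arrays. The 4 groups did not overlap, with DoxR arrays highest and DoxR-v arrays lowest. SNAI2 rose by log2 1.21 ± 0.19 in WT-v (adjusted p = 5.2e-04) and 2.39 ± 0.19 in DoxR cells (7.7e-07), and was lower than WT in DoxR-v cells (-0.95 ± 0.19, 0.00261). The last call did not hold with the deposited normalized values (log2 -0.43, adjusted p = 0.00438), whose fold is under 1.5. From DoxR to DoxR-v cells the log2 difference was -3.34 ± 0.19 (adjusted p = 3.5e-08), and a second probe gave -2.48.

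TWIST1, a basic helix-loop-helix factor of mesoderm and neural crest, ran the other way in DoxR cells. Its log2 signal was 11.06, 11.00 and 11.08 on WT arrays, 11.80, 11.52 and 11.73 on WT-v arrays, 9.36, 9.19 and 9.27 on DoxR arrays and 10.18, 10.18 and 10.39 on DoxR-v arrays. No groups overlapped, and the order was WT-v, WT, DoxR-v and DoxR. It rose by log2 0.64 ± 0.13 in WT-v (adjusted p = 0.00259) and was lower in the resistant lines (DoxR -1.77 ± 0.13, 3.4e-07, and DoxR-v -0.79 ± 0.13, 6.1e-04). Without the first WT-v array the rise in WT-v cells was under the fold limit (log2 0.58), and with median scaling so was the fall in DoxR-v cells (-0.58).

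ZEB1 and ZEB2 encode zinc finger repressors of E-cadherin. The log2 signal of ZEB1 was 5.46, 4.94 and 6.21 on WT arrays, 6.53, 5.94 and 5.81 on WT-v arrays, 6.03, 5.98 and 6.24 on DoxR arrays and 5.93, 5.88 and 5.52 on DoxR-v arrays. All groups overlapped with WT, of which 1 array detected the gene, and ZEB1 was called in no comparison. Without the third WT array it was higher in WT-v (log2 0.89, adjusted p = 0.0113) and DoxR cells (0.88, 0.0102), and with median scaling it was too (0.70 and 0.63). ZEB2 rose in all 3 groups, from a mean of log2 6.27 for WT to 7.53 for WT-v, 7.85 for DoxR and 7.30 for DoxR-v. With the deposited normalized values ZEB2 was not called in WT-v (log2 0.58) or DoxR-v cells (0.45).

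YAP and TAZ are the co-activators at the end of the Hippo pathway and bind TEAD factors. YAP1 and WWTR1 were detected on no array, and CCN1, a target of both, on 1 WT-v array only. CCN2, another target, had group means of log2 5.74 for WT, 6.32 for WT-v, 5.67 for DoxR and 5.70 for DoxR-v and was not called against WT. It was lower in DoxR-v cells than in WT-v (log2 -0.63, adjusted p = 0.0645), a call lost without the second WT-v array (-0.37, 0.242) or the second DoxR-v array (-0.47, 0.213). In WT-v cells it was called without the first (log2 0.73, adjusted p = 0.0667) or the third WT-v array (0.70, 0.0785), with median scaling and with the mean of its probes, and a second, dimmer probe, detected on 4 of 12 arrays, was called higher there (0.84) and lower in DoxR-v cells than in WT-v (-1.25, adjusted p = 0.00132). Of 16 further genes of the pathway, 12 were measured: 4 were higher and none lower in WT-v, 3 higher and none lower in DoxR, and none called in DoxR-v cells against WT, while 5 were lower in DoxR-v cells than in DoxR. Over all genes 14.5% were higher in WT-v and 17.4% in DoxR cells, and 14.4% were lower in DoxR-v cells than in DoxR. TEAD4, which encodes a TEAD factor, was detected in DoxR cells only, with a mean of log2 8.54 there against 4.49 in WT. ANKRD1, a target of YAP and TAZ, had means of log2 4.67 for WT (not detected), 5.44 for WT-v, 7.11 for DoxR and 4.42 for DoxR-v (not detected).

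Annexins, S100 proteins and galectin 1 bind calcium, membrane or sugar chains and are abundant in mesenchymal cells. S100A10, the partner of annexin A2 in the receptor complex for plasminogen, had log2 signals of 8.22, 8.47 and 8.15 on WT arrays, 7.52, 7.94 and 7.47 on WT-v arrays, 11.36, 11.36 and 11.43 on DoxR arrays and 7.84, 7.74 and 8.06 on DoxR-v arrays. Only the DoxR arrays stood above the WT range, and WT-v and DoxR-v arrays overlapped. It rose by log2 3.11 ± 0.16 in DoxR cells (adjusted p = 1.1e-08) and was lower in DoxR-v cells than in DoxR by a log2 difference of -3.50 ± 0.16 (3.2e-09). On a second probe these were 4.47 and -4.79. A small fall in WT-v cells (log2 -0.64 ± 0.16, adjusted p = 0.00853) was lost without the second WT array (-0.54), the first WT-v array (-0.57) or the third (-0.55), with median scaling (-0.26), with the deposited normalized values (-0.41) and on the second probe (-0.35).

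S100A11 and S100A6, both calcium-binding proteins, differed from each other. S100A11 was lower in WT-v cells by a log2 difference of -0.85 (adjusted p = 0.00479, not called with median scaling) and rose in DoxR (2.19, 1.7e-06) and DoxR-v cells (1.37, 1.8e-04). S100A6 fell in all 3 groups, by log2 differences of -1.49, -1.48 and -0.73. LGALS1, or galectin 1, fell in WT-v cells only (log2 -1.41, adjusted p = 3.4e-05), where the means were 12.33 for WT, 10.92 for WT-v, 12.34 for DoxR and 12.04 for DoxR-v. ANXA2 was not called against WT on its brightest probe, while its dimmest probe was lower in WT-v cells by a log2 difference of -1.16. It was higher in DoxR-v cells than in WT-v (log2 0.60), a call lost without the first DoxR-v or the second WT-v array (0.58 in each case). ANXA1 was not detected.

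Among 9 collagen genes, the basement membrane pair COL4A1 and COL4A2 was detected in DoxR cells alone. They encode the alpha chains that form type IV collagen together, and they lie head to head on chromosome 13 and share the DNA between their start sites as a promoter. The sequence between both start sites is shown because it serves both genes. It holds 126 bases at chr13:110307158-110307283 (GRCh38.p14, plus strand, from RefSeq), with the CCAAT motif in capitals.
COL4A1 to COL4A2: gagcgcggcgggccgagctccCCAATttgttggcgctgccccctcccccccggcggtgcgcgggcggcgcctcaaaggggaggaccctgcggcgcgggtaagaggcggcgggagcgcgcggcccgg
The log2 signal of COL4A1 was 8.92, 8.68 and 8.78 in DoxR cells. It was 5.21, 4.71 and 4.58 in WT, 4.62, 4.87 and 4.54 in WT-v and 4.51, 4.53 and 5.48 in DoxR-v cells, none of them detected. The DoxR arrays thus stood apart from 9 arrays at background. COL4A1 was at least 8.90-fold higher in DoxR than in WT cells (adjusted p = 6.6e-08) and at least 9.48-fold lower in DoxR-v cells than in DoxR (7.2e-08). COL4A2, with a mean of log2 6.37 in DoxR cells, was at least 1.67-fold higher than in WT (adjusted p = 4.6e-06) and at least 1.78-fold lower in DoxR-v cells than in DoxR (1.2e-05). With the deposited normalized values the latter was not called (log2 -0.49).

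Of the type VI and type V collagen genes, COL6A1 and COL6A2 were called higher in WT-v cells. COL6A1, a chain of the microfibrillar type VI collagen, had log2 signals of 6.08, 5.81 and 6.18 on WT arrays, 7.99, 7.27 and 8.13 on WT-v arrays, 5.09, 5.19 and 5.22 on DoxR arrays and 4.96, 5.39 and 5.69 on DoxR-v arrays. The WT-v arrays were above all others, DoxR arrays did not detect it and 1 DoxR-v array did. It rose by log2 1.77 ± 0.23 in WT-v cells (adjusted p = 1.1e-04) and was at least 1.49-fold lower in DoxR cells (0.00964). The fall in DoxR-v cells (log2 -0.68, adjusted p = 0.0401) was lost without the first DoxR-v array (-0.48, 0.166), with median scaling (-0.47) and with the deposited normalized values (-0.18), where DoxR cells were not called either (-0.23). COL6A2, a second chain of type VI collagen, was detected in WT-v cells alone, at a mean of log2 6.18, at least 1.46-fold over WT (adjusted p = 0.00103). Its values rest on 1 of its 3 probes, and the others were detected on no array. COL5A1, a fibrillar collagen, was not called in WT-v cells, was at least 1.85-fold lower in DoxR cells (adjusted p = 2.4e-05) and was lower in DoxR-v cells (log2 -1.01, 0.00186). It was called higher in DoxR-v cells, 1 array of which detected it, than in DoxR, which did not, but the groups overlapped, and this call was lost without the first DoxR or the first DoxR-v array. COL1A1 was called higher in WT-v cells (adjusted p = 0.0385) but was detected on the first WT-v array alone, so no fold above its background could be given. The call was lost without that array (adjusted p = 0.169) or without the first WT array (0.11). COL6A3 was called in no pairwise comparison with all arrays, and COL5A2 and COL18A1 were not detected.

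Laminins and glycoproteins included members at opposite ends. LAMA4, the laminin alpha chain of vessels and mesenchyme, had log2 signals of 8.23, 7.84 and 8.01 on WT arrays, 5.04, 4.98 and 4.42 on WT-v arrays, 4.51, 4.54 and 4.40 on DoxR arrays and 4.58, 4.49 and 4.39 on DoxR-v arrays. It was detected on every WT array and on no other. The fall was at least 6.14-fold in WT-v (adjusted p = 5.3e-08), at least 5.96-fold in DoxR (7.3e-09) and at least 5.58-fold in DoxR-v cells (1.9e-08). A second probe, also detected on 3 arrays, was called lower in all 3 groups. Of the beta and gamma chain genes, LAMB1 rose in DoxR cells (log2 0.84, adjusted p = 0.00229), and LAMC1 was lower in DoxR-v cells (-0.64, 0.00255). The latter was -0.57 and not called without the second DoxR-v array, nor was it with median scaling.

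SPARC, or osteonectin, a secreted protein that binds collagen, had log2 signals of 6.88, 6.67 and 7.22 on WT arrays, 7.33, 7.82 and 7.38 on WT-v arrays, 8.39, 8.30 and 8.32 on DoxR arrays and 5.03, 5.81 and 4.42 on DoxR-v arrays, 1 of which detected it. The DoxR arrays were above and the DoxR-v arrays below all others. SPARC rose by log2 1.41 ± 0.28 in DoxR cells (adjusted p = 0.00136) and was lower in DoxR-v cells than in WT (-1.84 ± 0.28, 3.4e-04), DoxR (-3.25 ± 0.28, 1.6e-06) and WT-v cells (-2.42, 3.9e-05). In WT-v cells it was called only without the third WT array (log2 0.73, adjusted p = 0.0845) and with median scaling (0.94).

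THBS1, thrombospondin 1, a matrix glycoprotein that activates latent TGF-beta, was detected on all DoxR arrays (mean log2 5.78) and on no other. It was at least 1.11-fold higher than in WT (adjusted p = 9.4e-05), and was not called with the deposited normalized values (log2 0.40). The 100 bases before its start site, at chr15:39580979-39581078 (GRCh38.p14, plus strand, from RefSeq), are shown because they hold the TEAD motif GGAATG, here in capitals.
THBS1: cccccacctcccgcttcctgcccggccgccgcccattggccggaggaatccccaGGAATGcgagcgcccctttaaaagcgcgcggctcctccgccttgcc
RefSeq promoters were found for 38 of the 49 members, and the 250 bases before the start were searched on both strands for 4 motifs. GGAATG occurred in 6 of 38 members (15.8%), YAP1, CCN2, SPARC, THBS1, ITGA5 and ITGB1, and in 14.3% of 27305 genes. CCAAT occurred in 28.9% of the members and 37% of genes, TGANTCA of AP-1 in 5.26% and 8.06%, and CAGGTG, bound by SNAI and ZEB factors, in 7.89% and 20.6%. A match is a description of these letters and not of binding.

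Of 6 integrin genes, ITGA3 and ITGA5 were not detected. ITGA6 encodes the alpha subunit of a laminin receptor. Its log2 signal was 5.28, 4.67 and 5.36 on WT arrays and 4.64, 4.53 and 4.71 on WT-v arrays, not detected in either, and 6.01, 6.53 and 6.17 on DoxR arrays and 7.65, 7.38 and 7.64 on DoxR-v arrays. The resistant lines did not overlap with the sensitive ones or with each other. ITGA6 rose at least 1.52-fold in DoxR (adjusted p = 4.6e-04) and at least 3.78-fold in DoxR-v cells (1.4e-06), and was higher in DoxR-v cells than in DoxR by log2 1.32 ± 0.19 (1.7e-04). With the deposited normalized values the rise in DoxR cells was not called (log2 0.32). The values of ITGA6 rest on 1 of its 3 probes, and the others were detected on no array. ITGAV, the alpha subunit of vitronectin and TGF-beta activating receptors, was higher in DoxR cells (log2 0.99, adjusted p = 0.00145) and lower in DoxR-v cells than in DoxR (-0.90, 0.00325). In WT-v cells it was not called with all arrays, but was without the third WT array (log2 0.82) or the third WT-v array (0.65) and with median scaling. ITGB5, a partner of ITGAV, was lower in WT-v cells (log2 -0.82, adjusted p = 0.00321, not called with median scaling), and its dimmest measured probe was higher in DoxR (0.63) and DoxR-v cells (0.90) where the brightest was not called. ITGB1, the shared beta subunit of laminin and collagen receptors, was called in no comparison.

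All 4 protease and inhibitor genes were called in WT-v cells, MMP2 and SERPINE2 higher and TIMP1 and TIMP3 lower. TIMP1, an inhibitor of matrix metalloproteinases, had log2 signals of 11.63, 11.97 and 11.55 on WT arrays, 9.76, 10.10 and 9.74 on WT-v arrays, 11.25, 11.38 and 11.57 on DoxR arrays and 11.05, 10.77 and 11.05 on DoxR-v arrays. The WT-v arrays were below all others, and DoxR arrays overlapped with WT. TIMP1 fell in WT-v (log2 -1.86 ± 0.16, adjusted p = 4.6e-06) and DoxR-v cells (-0.76 ± 0.16, 0.00369). MMP2, or gelatinase A, rose in WT-v cells (log2 1.54, adjusted p = 2.0e-04). Its smaller differences in DoxR (log2 0.72) and DoxR-v cells (0.69) were lost without the first WT array (0.46 and 0.43) and with the deposited normalized values (0.23 and 0.22). TIMP3 was called lower in all 3 groups, but 1 WT array alone detected it, and the bound was at least 1.02-fold in WT-v cells and not above 1 in the resistant lines, so the size of the fall was not measured.

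SERPINE2, protease nexin 1, an inhibitor of thrombin and plasminogen activators, had log2 signals of 5.26, 5.41 and 5.94 on WT arrays, 6.90, 6.99 and 6.72 on WT-v arrays, 8.29, 8.10 and 8.05 on DoxR arrays and 5.77, 5.21 and 4.90 on DoxR-v arrays. WT and DoxR-v arrays overlapped, with 1 array of each detecting it, WT-v arrays lay above both, and DoxR arrays were highest. It rose by log2 1.33 ± 0.22 in WT-v (adjusted p = 6.8e-04) and 2.61 ± 0.22 in DoxR cells (1.2e-06). In DoxR-v cells it was not called against WT, and was lower than in DoxR (log2 -2.85 ± 0.22, adjusted p = 6.4e-07) and WT-v cells (-1.58, 1.8e-04). With the deposited normalized values the rise in WT-v cells was log2 0.46 and not called, and neither was the difference from WT-v in DoxR-v cells (-0.52).

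Of the TGF-beta members, the ligand gene TGFB1 and the target TGFBI were not detected. TGFBR2 encodes the receptor kinase that binds the ligand first. Its log2 signal was 4.70, 4.47 and 5.03 on WT arrays, which did not detect it, 5.59, 5.99 and 5.18 on WT-v arrays, 6.77, 6.62 and 6.62 on DoxR arrays and 7.98, 7.96 and 7.59 on DoxR-v arrays. No groups overlapped, and the order was WT, WT-v, DoxR and DoxR-v. TGFBR2 was at least 2.05-fold higher in DoxR (adjusted p = 1.1e-05) and at least 4.62-fold in DoxR-v cells (3.0e-07), and was higher in DoxR-v cells than in DoxR by log2 1.17 ± 0.21 (7.3e-04). It was also called in WT-v cells (adjusted p = 0.00754), 2 arrays of which detected it, but their mean did not exceed the mean of the dimmest signals that WT arrays could detect, so no fold is given, and on the deposited normalized scale TGFBR2 was not called there. Another TGFBR2 probe was called higher in all 3 groups. Of 21 further genes of the pathway, 17 were measured. In WT-v cells 4 were higher and none lower, in DoxR cells 6 were higher and 1 lower, in DoxR-v cells 5 were higher and 2 lower, and 4 were lower and none higher in DoxR-v cells than in DoxR. Of all genes 14.5% were higher and 12.5% lower in WT-v, 17.4% and 16.3% in DoxR and 13.3% and 12.6% in DoxR-v cells, and 14.4% were lower in DoxR-v cells than in DoxR. BAMBI, a decoy receptor, and SMAD7, an inhibitory SMAD, rose by log2 2.15 and 1.20 in DoxR cells and by 0.83 and 0.63 in WT-v cells. They are 2 of the 17 measured genes and do not stand for the list, in which 1 gene was lower in DoxR cells.

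Vorinostat-exposed and unexposed cells were compared once in the sensitive background (WT-v against WT) and once in the resistant one (DoxR-v against DoxR), which share no array. Of the 37 measured members 8 were called in both, 4 in the same direction and 4 in opposite directions, and over all genes 1159 were called in both, 515 in the same and 644 in opposite directions. VIM, SNAI2 and SERPINE2 were higher in WT-v than in WT cells and lower in DoxR-v cells than in DoxR, and S100A6 was the reverse. TWIST1 and TGFBR2 were higher in both, and S100A10 and S100A11 lower in both. Each of these 4 calls in WT-v cells was lost in at least 1 alternative. That of TWIST1 was lost without the first WT-v array, that of TGFBR2 with the deposited normalized values and that of S100A11 with median scaling. That of S100A10 was lost with either set of values and without single arrays. SERPINE2 was not called in WT-v cells with the deposited normalized values. The difference of the differences was -4.72 ± 0.24 for VIM (adjusted p = 1.9e-08), -4.55 ± 0.27 for SNAI2 (7.6e-08) and -4.19 ± 0.31 for SERPINE2 (6.1e-07) on the log2 scale. For S100A6 it was 2.24 ± 0.27 (3.9e-05).

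**Figure D4:**
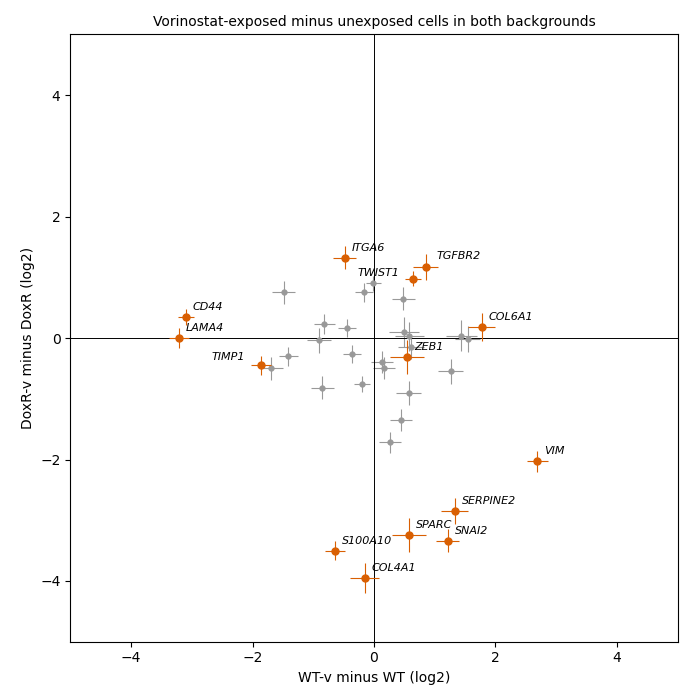
Log2 difference of each of the 37 measured members between WT-v and WT cells (x axis) and between DoxR-v and DoxR cells (y axis), with SE bars and with 14 members named in orange. VIM, SNAI2 and SERPINE2 lie to the lower right (higher in WT-v, lower in DoxR-v than in DoxR), and CD44 and LAMA4 lie at the left near 0 on the y axis.

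Genes of matrix, adhesion and other cell types outside the 49 were read beside them. Their counts stand against 14.5% of all genes higher and 12.5% lower in WT-v, 17.4% and 16.3% in DoxR and 13.3% and 12.6% in DoxR-v cells against WT, and 14.7% and 14.4% in DoxR-v cells against DoxR. Of 39 further matrix and basement membrane genes 18 were measured, with 6 higher and 2 lower in WT-v, 6 higher and 4 lower in DoxR, and 3 higher and 2 lower in DoxR-v cells against WT, and 3 higher and 6 lower in DoxR-v cells than in DoxR. The counts in DoxR-v cells against WT were near the shares of all genes. VCAN, the proteoglycan versican, had means of log2 5.82 for WT, 7.18 for WT-v, 10.17 for DoxR and 8.47 for DoxR-v. BGN, or biglycan, and SERPINH1, the collagen chaperone, were higher in DoxR cells by log2 1.54 and 1.64 and lower in DoxR-v cells than in DoxR by differences of -1.79 and -1.26. These examples go 1 way and do not stand for the list. It also held the 4 genes lower in DoxR cells and the 3 higher in DoxR-v cells than in DoxR. Of 21 further integrin and adhesion genes 13 were measured, with 5 lower and none higher in WT-v cells, and 2 higher and 2 lower in DoxR cells. Of 15 further matrix proteases and inhibitors 8 were measured, with 3 higher and 2 lower in WT-v and 1 each in DoxR cells.

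Fibroblast markers were measured for 7 of 9 genes. Their summed linear signal was 5091 to 6023 for WT, 6638 to 6945 for WT-v, 2775 to 2923 for DoxR and 8501 to 12058 for DoxR-v. Of the 7 genes 4 were higher and none lower in WT-v, 2 higher and 3 lower in DoxR, and 2 higher and 1 lower in DoxR-v cells against WT. These counts stand against the same shares of all genes as those of the matrix genes above. THY1, a surface glycoprotein of fibroblasts and neurons, was the brightest of them in WT and DoxR cells (means of log2 11.34 and 11.08) and was called in no comparison. DCN and LUM, proteoglycans of connective tissue, fell in DoxR cells (log2 -3.30 and -2.07) and rose in WT-v (0.98 and 0.95) and DoxR-v cells (1.35 and 2.79). PDGFRB, a receptor of platelet-derived growth factor, fell in both resistant lines (log2 -3.68 in DoxR, -2.39 in DoxR-v) and was not called in WT-v cells. PDGFRA, the other receptor, was not detected in WT or DoxR-v cells and had means of log2 5.92 for WT-v and 5.84 for DoxR. COL3A1, a fibrillar collagen, was not detected in WT or DoxR-v cells and had means of log2 6.73 for WT-v and 7.68 for DoxR. COL1A2 and FAP were detected on no array, and the part of fibroblast-type cells in the results was not tested. The defining markers PTPRC and CD3E of leukocytes, PECAM1, CDH5 and VWF of endothelium, SOX10 and S100B of Schwann cells, and CDH1, KRT8 and KRT18 of epithelium were detected on no array. Of those lists CD14, ERBB3, TEK, EPCAM and KRT19 were measured. The summed signal of the leukocyte list was 195 to 263 in WT and 119 to 154 over the other groups. That of the epithelial list was 229 to 242 in WT, 154 to 175 over WT-v and DoxR and 212 to 311 in DoxR-v cells, that of the Schwann cell list 72.8 to 131 and that of the endothelial list 90.3 to 113 over all groups, and their part was not tested.

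Among the 16 further regulators of the mesenchymal neuroblastoma state 8 were measured, with 3 higher and 1 lower in WT-v, 2 higher in DoxR, and 2 higher and 1 lower in DoxR-v cells. Of all genes 14.5% were higher and 12.5% lower in WT-v, 17.4% and 16.3% in DoxR, and 13.3% and 12.6% in DoxR-v cells. TBX18, a T-box factor, had means of log2 4.97 for WT (not detected), 5.90 for WT-v, 7.34 for DoxR and 5.00 for DoxR-v (not detected). Others of the list differed from it. NOTCH3 was not detected in WT or DoxR cells and had means of log2 6.39 for WT-v and 5.85 for DoxR-v. SIX4 was higher in WT-v, DoxR and DoxR-v cells (log2 1.36, 2.03 and 1.28). IRF1 was lower in WT-v (log2 -0.85) and JUN in DoxR-v cells (-0.68). FOSL2, MEOX1 and SOX9 were not called against WT. Of the 8 measured adrenergic genes 1 was higher and 1 lower in WT-v, 2 higher and 2 lower in DoxR and 1 higher and 2 lower in DoxR-v cells. The counts of neither short list were tested against the shares of all genes. DBH, the enzyme that makes noradrenaline, was lower in DoxR cells by a log2 difference of -4.09 and was not called in DoxR-v cells (0.20). HAND2, a factor of sympathetic neurons, was lower in both resistant lines (log2 -1.25 and -1.63), and GATA3 was lower in DoxR-v cells (-0.62). Other adrenergic genes went the other way. ELAVL4 was higher in WT-v, DoxR and DoxR-v cells (log2 1.10, 1.11 and 0.98), and PHOX2A in DoxR cells (0.79). MYCN, GATA2 and ISL1 were not called against WT.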

How the data were processed

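RNA of 12 specimens was amplified and labelled by the study, and the labelled cRNA was hybridised to HumanHT-12 v4 BeadChips. Per the file headers each probe has a signal intensity, which the authors deposited summarised from beads and not normalized, and a detection p-value deposited beside it. The authors also deposited quantile-normalized intensities, used as an alternative. Software named in the submitters' processing notes was lumi 2.13.3 and R 3.0.1. The software that summarised beads is not given in the sources used here.

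Signals were background-corrected by normexp with an offset of 16, its parameters inferred from detection p-values, then quantile normalized and log2 transformed. Background correction widens differences of dim probes. Of 47323 probes 21730 were detected on at least 1 array, of which 16412 had 1 symbol and gave 12138 genes, each taking its probe with the highest mean. Symbols came from the platform annotation, updated through RefSeq for 30074 probes. Group differences were tested by limma 3.58.1 under R 4.3.3 (1 mean per group, empirical Bayes, Benjamini-Hochberg over all probes tested), and the script was tested on simulated data. The number of arrays limits the precision.

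The members and the further gene lists were chosen with earlier results of these data known. Signals on every array are given for the 5 members with the largest difference among those called in each pairwise comparison, and for VIM, FN1, CD44, YAP1, WWTR1, SNAI2, TWIST1, ZEB1 and PRRX1. Alternatives changed the values (those deposited as normalized, no background correction, an offset of 50, median scaling), the filter (none, or detection on at least 3 arrays), the fit (only the groups compared, or with a replicate block), the summary of a gene (mean of its probes) and the limits (0.05 for the adjusted p, 2 for the fold change), and left out each array in turn.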

Additional observations from a re-analysis of the deposited data

Results flagged for a closer look

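The difference between vorinostat-exposed and unexposed cells was called unlike in the sensitive and the resistant background for 11 members. These are members whose values are given on every array, and background limits the test for some of them, as given below. The test was limma's, of (DoxR-v minus DoxR) minus (WT-v minus WT). Members were picked for such values partly by large differences in the comparisons that enter this test. A high count among them follows from that choice and says nothing of the list. Of all 37 measured members 12 were called higher and 15 lower, against 20.4% and 22.1% of all genes. On the log2 scale the difference was -4.72 for VIM (adjusted p = 1.9e-08), -4.55 for SNAI2 (7.6e-08) and -4.19 for SERPINE2 (6.1e-07), which were higher in WT-v than in WT cells and lower in DoxR-v cells than in DoxR. It was -3.84 for SPARC (1.1e-05), -3.80 for COL4A1 (3.9e-06) and -2.87 for S100A10 (9.6e-07), where the larger change was the one between DoxR and DoxR-v cells. It was -1.60 for COL6A1 (0.00200), which rose in WT-v cells only. CD44 (3.44, adjusted p = 2.4e-08), LAMA4 (3.21, 7.4e-07) and TIMP1 (1.41, 4.8e-04) fell in WT-v cells and were not called between DoxR-v and DoxR cells. ITGA6 (1.80, 2.6e-04) was higher in DoxR-v cells than in DoxR and not detected in WT or WT-v cells.

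LAMA4 was detected in WT cells only, COL4A1 in DoxR cells only and CD44 in all groups but WT-v, so their differences are limited by the background on at least 1 side. So are those of ITGA6, whose value includes a difference of -0.48 between WT-v and WT signals that were not detected, and of COL6A1, which DoxR arrays did not detect and 1 DoxR-v array did. LAMA4 was at background in DoxR and DoxR-v cells, where no further fall could be seen. COL4A1 was at background in WT and WT-v cells in the same way. For LAMA4 and COL4A1 the test therefore cannot decide whether the backgrounds differed. DoxR and DoxR-v cells were selected in parallel, and vorinostat and separate selection cannot be told apart in any of these values.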

How the results depend on the processing

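No called member changed direction under any alternative run. With the deposited normalized values, 13 measured members were called in WT-v and 12 in DoxR-v against WT, in place of 20 and 19, while the share of all genes fell from 14.5% higher and 12.5% lower to 5.56% and 5.95% in WT-v and from 13.3% and 12.6% to 5.14% and 5.67% in DoxR-v cells. By direction they gave 5 higher in WT-v (in place of 10), and 4 lower in DoxR (8), 6 in DoxR-v (11) and 4 in DoxR-v against WT-v (9). The share of all genes that was lower fell to 8.04% in DoxR (from 16.3%) and 5.27% in DoxR-v against WT-v (from 12.8%). Lower members in DoxR cells were 5 with no background correction and with an offset of 50, and 4 with a fold change over 2. Of all genes 9.55%, 12.5% and 7.12% were lower there in these settings. Lower members in DoxR-v cells were 7 with no background correction, against 7.03% of all genes. With a fold change over 2 there were 13 members called in WT-v, 11 in DoxR-v and, in DoxR-v against DoxR, 10 in place of 18. Of these 6 were lower in WT-v, 4 lower in DoxR-v and 2 higher in DoxR-v against DoxR. At that limit 4.60% of all genes were higher and 4.71% lower in WT-v, and 4.45% and 4.39% in DoxR-v cells. In DoxR-v against DoxR the shares were 6.14% and 6.07%. The median of the difference between the vorinostat comparisons was -0.14 with the deposited values, -0.21 with no background correction, -0.26 with an offset of 50 and -0.17 with no detection filter, in place of -0.52. With no filter the median in DoxR-v against DoxR was -0.04, and with detection on at least 3 arrays that in DoxR against WT was 0.54. The members without detection in those fits, or left out of them, are the reason for the last 3 values by construction. Counts in the other settings, by direction and with each array left out, stayed within 1.5 times those in the report.

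Same-numbered arrays did not deviate together (r from -0.27 to 0.11, with 1 of 18 pairs over 0.1, and 1 of 12 arrays closest to its own number), so the numbers pair nothing. With a replicate block 20, 24, 19, 18 and 19 members were called in the 5 pairwise comparisons and 27 in the difference, the same as without. Dim members, near the lowest detected signals of log2 5.28 to 5.77, rest on few detected arrays.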
